A study of Mus musculus with 12 samples.

Results

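Genes of glycolysis and of the transcriptional response to low oxygen were examined in mouse T cells with and without PERK, a sensor kinase of endoplasmic reticulum stress. A list of 43 genes was followed: glucose and lactate transporters, the enzymes of the pathway and their regulators, pyruvate dehydrogenase kinases, oxygen sensors, hypoxia-induced genes and glycogen genes. Of these, 16 had 10 or more assigned counts over the 12 libraries, among 5910 such genes in all. They were Slc2a1, Slc16a3, Hk1, Hk2, Pfkl, Pfkm, Pfkp, Pgam1, Eno1, Eno3, Pfkfb3, Pfkfb4, Pdk1, Pdk3, Adm and Mxi1. Another 8 (Slc2a3, Aldoa, Tpi1, Pkm, P4ha1, Higd1a, Kdm3a and Gys1) lay only on table entries that also cover another gene. Gapdh had 2 assigned counts, while an entry of 15239 counts over it was set aside by the assignment. The remaining 18 lay on no entry (Slc16a1, Hk3, Gpi1, Aldoc, Pgk1, Eno2, Ldha, Ldhb, Hif1a, Egln1, Egln3, Bnip3, Bnip3l, Ankrd37, P4ha2, Vegfa, Ndrg1 and Gbe1). Lactate dehydrogenase, the prolyl hydroxylases and the alpha subunit of HIF-1 were therefore not measured.

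T cells from spleen came from wild-type (WT) B6 mice or from PERK-cKO mice on the same background. PERK-cKO mice carry PERK fl/fl alleles and CD4-Cre, which removes the kinase encoded by Eif2ak3 from CD4+ and CD8+ T cells alike because the Cre is active before these lineages separate. By the labels, stimulation was either 4 days of culture with allogeneic APCs, the cells that present antigen, or 3 days of polyclonal activation by antibodies against CD3 and CD28, so the stimulus, the presence of APCs in the culture and its length changed together. A figure legend of the study gives equal lengths for both stimulations, so the difference in length is uncertain. Bulk RNA-Seq was done on 3 libraries in each of the 4 groups. Neither the age or sex of the mice nor whether each library came from a separate animal is given in the labels, so p-values describe the spread between these libraries, which may be technical.

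Glycolysis turns glucose into pyruvate in the cytosol, and proliferating T cells raise it strongly after activation, exporting much of the carbon as lactate. Under low oxygen, or after T cell receptor signalling, the HIF-1 dimer induces the glucose transporter GLUT1, most glycolytic enzymes, the lactate exporter MCT4 and the kinases that keep pyruvate out of the mitochondria. Phosphofructokinase is the committed step, and the PFKFB enzymes set the level of the sugar phosphate that activates it.

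The deposited table lists counts by exon positions of a newer genome build than the one named for the reads, so the symbols printed beside the counts do not mark where the reads fell. Each entry was therefore assigned by its printed positions to the GRCm38 gene whose exons it covers. The 16 genes were read from 24 entries that overlay 72 to 1398 exon bases each. Whole entries were 650 to 13401 bases long, so their counts may also come from bases outside those exons. Slc16a3 (chr11:120948480-120960868, plus strand) was read over 1493 untranslated bases, Hk1 (chr10:62268855-62379908, minus strand) over 530 coding bases and Pdk1 (chr2:71873224-71903858, plus strand) over 102 coding bases. Slc2a1 (chr4:119108711-119137983, plus strand) was read from an entry of 4263 bases with 160 counts in all. That entry overlays 114 of its exon bases, 108 of them untranslated. Another entry over Slc2a1, with 13795 counts, was set aside by the assignment. Levels are CPM, counts scaled to a common library size of assigned counts after TMM, and since each gene is read over a different length of exon, CPM was compared between groups and not between genes.

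Total counts were 3132702 to 4631908 per library, of which 1568631 to 2327859 were assigned. Differences between libraries of a group exceeded counting noise in every pair (chi-square per degree of freedom 3.59 to 54.5), and polyclonal WT library 1 stood apart from the other polyclonal WT libraries (48.2 and 54.5). Eif2ak3 itself (chr6) was read at 104.8, 96.8 and 90.8 CPM in WT and 67.2, 69.3 and 72.7 CPM in PERK-cKO cells after allogeneic stimulation, and at 80.2, 59.3 and 44.7 against 51.1, 45.3 and 47.7 CPM after polyclonal stimulation. The deleted exons are not named in the sources used here, so these values do not check the genotype. Of 14 T cell markers, 5 were read (Cd5, Cd6, Cd8b1, Lck and Thy1), and their summed level was 5640 to 5745 CPM in allogeneic WT, 5025 to 5692 in allogeneic PERK-cKO, 3608 to 3808 in polyclonal WT and 4842 to 5119 in polyclonal PERK-cKO libraries. The CD3 chain genes and Cd4 were not among those read. The summed level of 3 of 12 macrophage and monocyte markers was 1627 to 1791 CPM in allogeneic PERK-cKO, 231.3 to 264.9 in allogeneic WT and 100.1 to 138.6 in all polyclonal libraries. That of 3 of 5 basophil and mast cell markers was 560.9 to 597.7 CPM in allogeneic PERK-cKO against 29.6 to 39.4 in allogeneic WT libraries, and that of the B cell marker Ms4a1 was 137.6 to 166.6 against 50.9 to 68.2 CPM. Dendritic, NK and erythroid markers summed to at most 11.3 CPM in any library, no neutrophil marker was read, and Lyz2 was at 0 in the polyclonal WT libraries. The summed level of 4 Y-linked genes was 2068 to 2474 CPM in allogeneic WT libraries and 0 in the other 9, so the sex of the cells and the genotype or stimulus cannot be told apart in comparisons with that group. In bulk RNA, fewer cells of a type and less RNA per cell cannot be told apart.

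The sequences before the transcription starts are shown for the 6 genes with a single RefSeq start that were lower in PERK-cKO cells after polyclonal stimulation, because HIF-1 is known to bind the letters ACGTG and GCGTG. They were chosen by that fall, and 3 of them (Adm, Slc2a1 and Pfkfb4) were tested only because their WT libraries were high. Each run is the 120 bases before the start in RefSeq GRCm38.p6, 5′ to 3′ on the gene's strand, with those letters on either strand in capitals. ACGTG is also part of the E-box CACGTG, which was counted on both strands.
Adm, chr7:110627537-110627656, plus strand: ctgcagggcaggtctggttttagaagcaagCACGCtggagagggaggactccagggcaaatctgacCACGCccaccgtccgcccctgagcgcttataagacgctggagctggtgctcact
Slc2a1, chr4:119108625-119108744, plus strand: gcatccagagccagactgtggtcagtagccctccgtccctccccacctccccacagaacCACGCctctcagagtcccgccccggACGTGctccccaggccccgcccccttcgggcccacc
Pfkfb4, chr9:108991782-108991901, plus strand: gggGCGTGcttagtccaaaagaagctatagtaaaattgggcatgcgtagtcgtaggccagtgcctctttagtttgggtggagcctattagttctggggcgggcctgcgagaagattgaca
Pgam1, chr19:41911751-41911870, plus strand: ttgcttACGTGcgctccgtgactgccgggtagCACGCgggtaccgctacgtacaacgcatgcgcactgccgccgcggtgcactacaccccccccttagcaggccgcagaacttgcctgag
Pfkp, chr13:6648772-6648891, minus strand: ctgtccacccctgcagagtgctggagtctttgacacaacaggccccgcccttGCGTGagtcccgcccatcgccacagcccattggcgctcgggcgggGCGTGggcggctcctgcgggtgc
Slc16a3, chr11:120948947-120949066, plus strand: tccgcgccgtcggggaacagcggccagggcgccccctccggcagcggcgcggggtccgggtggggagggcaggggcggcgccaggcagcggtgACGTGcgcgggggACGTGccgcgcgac
Pfkfb4 holds 1 such match in the bases shown and each of the other 5 genes holds 2. In the 250 bases before at least 1 of its starts, every one of the 16 genes held a match, as did 35 (87.5%) of the 40 listed genes in the RefSeq promoter table, 11226 (41.5%) of all its 27025 genes and 1928 (61.3%) of the 3146 genes tested in the interaction that the table lists. A match describes letters and not a bound site.

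After polyclonal stimulation, 11 of the 16 genes were lower in PERK-cKO than in WT T cells and none was higher, nor was any higher by DESeq2 or at an unadjusted edgeR p under 0.05. Over all 3941 genes tested, 31.8% were called, 15.8% lower and 16% higher (edgeR's quasi-likelihood test, Benjamini-Hochberg adjusted p below 0.05). The median log2 fold change was -0.56 over the 16 genes and 0.0014 over all genes tested. Adm, Slc2a1 and Pfkfb4 reached the filter on low counts only because the WT libraries were high, so their calls are no independent part of this count. Of the other 13 genes, 8 were lower, with a median of -0.53. These 8 were the lactate transporter, 3 of 5 upper and 2 of 3 lower glycolysis genes, 1 of 2 pyruvate dehydrogenase kinases and the hypoxia-induced gene Mxi1.

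Adm encodes adrenomedullin, a vasodilator peptide and a widely used marker of HIF activity. It lies at chr7:110627661-110629820 on the plus strand and was read from 174 counts, mostly over untranslated bases. After polyclonal stimulation it stood at 24.3, 15.1 and 22.6 CPM in WT libraries (46, 30 and 43 counts) and at 2.64, 0.596 and 1.04 CPM in PERK-cKO libraries (6, 1 and 2 counts). The groups lay far apart, with a log2 fold change of -3.71 ± 0.447 (SE, edgeR adjusted p = 1.75e-05), in a gene that no PERK-cKO library brought over the filter, and it dropped out when 10 counts were required in every library. On summed counts the WT libraries held 13.4 times as much, with an exact 95% interval of 6.85 to 30.1 that covers counting error only. Without polyclonal PERK-cKO library 1, the log2 fold change was -4.55.

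Mxi1, a partner of MAX that opposes MYC and is induced through HIF-1, had the smallest adjusted p of the 16. It lies at chr19:53310518-53375810 on the plus strand and was read over 742 exon bases, all untranslated. Its levels were 304.6, 294.7 and 274.2 CPM in WT and 116.2, 119.2 and 114.6 CPM in PERK-cKO libraries. No library of either genotype came near the other, and the gene was 2.51-fold lower (log2 fold change -1.33 ± 0.0928, edgeR adjusted p = 7.03e-08).

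Slc2a1 encodes GLUT1, the main glucose carrier of activated T cells. It stood at 10.03, 18.1 and 11.6 CPM in WT and 3.52, 2.98 and 6.22 CPM in PERK-cKO libraries, where single libraries held only 5 to 12 counts. The gene was 3.11-fold lower (log2 fold change -1.64 ± 0.395, edgeR adjusted p = 0.00503), and the groups did not overlap. It reached the filter on low counts only because the WT libraries were high, so neither is independent support. Slc16a3, encoding the lactate exporter MCT4, fell from 1132, 1065 and 1019 CPM to 907.1, 924 and 875.3 CPM (log2 fold change -0.26 ± 0.0778, edgeR adjusted p = 0.0198). Its call was lost without polyclonal PERK-cKO library 3 (-0.23), without polyclonal WT library 1 (-0.24) and with library size as the only scaling (-0.20).

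Of the 3 phosphofructokinase genes, which encode the enzyme of the committed step, Pfkm and Pfkp were lower and Pfkl was not called. Pfkm (chr15:98092589-98132451, plus strand), the muscle-type isoform, stood at 234.4, 199.6 and 161.6 CPM in WT and 103, 118.6 and 101.1 CPM in PERK-cKO libraries, 1.86-fold lower (log2 fold change -0.90 ± 0.131, edgeR adjusted p = 0.000112). Pfkp (chr13:6579768-6648777, minus strand), the platelet-type isoform, fell from 1261, 1227 and 1130 to 815.6, 832.3 and 833.3 CPM (log2 fold change -0.55 ± 0.0776, edgeR adjusted p = 7.57e-05). Pfkl, the liver-type isoform, overlapped between the genotypes, at 348.4, 325.3 and 326.3 CPM in WT and 323.9, 324.7 and 328.8 CPM in PERK-cKO libraries. These isoforms differed in their fitted log2 fold changes, from -0.90 for Pfkm to -0.04 ± 0.0819 for Pfkl, although no test of that difference was made.

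Hk1, a hexokinase that traps glucose by phosphorylation, fell from 454.5, 404.8 and 383.7 CPM to 276.8, 297.3 and 272.8 CPM (log2 fold change -0.56 ± 0.0916, edgeR adjusted p = 0.000265). Hk2, the inducible hexokinase, was lower in every PERK-cKO library (312.1, 289.5 and 284.7 against 341.5, 366.6 and 320 CPM), but its log2 fold change of -0.22 ± 0.0884 missed the threshold (edgeR adjusted p = 0.0695). Hk2 passed it without polyclonal PERK-cKO library 1 (-0.28) or polyclonal WT library 3 (-0.27). Hk1 and Hk2 thus differed in whether they passed, and the difference between them was not tested.

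In the lower part of the pathway, Pgam1 (chr19:41911923-41918660, plus strand), the phosphoglycerate mutase, stood at 126.2, 106.1 and 98.9 CPM in WT and 64.3, 76.3 and 78.8 CPM in PERK-cKO libraries (log2 fold change -0.61 ± 0.132, edgeR adjusted p = 0.00241). Eno1 (chr4:150236721-150248879, plus strand), the ubiquitous enolase, fell from 268.7, 252.4 and 251.6 to 167.7, 183.5 and 186.2 CPM (log2 fold change -0.53 ± 0.0907, edgeR adjusted p = 0.000374). The exon bases over which Eno1 was read, 660, are all untranslated. Eno3, the muscle enolase, overlapped between genotypes at 48.3 to 54.2 CPM in WT and 49.3 to 56.6 CPM in PERK-cKO libraries. Pgam1 and Eno1 have near-identical gene copies elsewhere in the genome, so reads could have been lost to or gained from them.

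Among the regulators, Pfkfb4 fell from 14.8, 13.1 and 19.5 CPM to 4.40, 9.53 and 9.33 CPM (log2 fold change -1.06 ± 0.343, edgeR adjusted p = 0.0278). This call rested on few counts, 10 to 37 per library, in a gene that reached the filter only because the WT libraries were high. It was lost without polyclonal PERK-cKO library 1 (-0.76), polyclonal WT library 1 (-1.12) or polyclonal WT library 3 (-0.88). Pfkfb3 was lower in every PERK-cKO library, 50.3 to 57.8 against 62.1 to 72.9 CPM, and missed the threshold (log2 fold change -0.36 ± 0.141, edgeR adjusted p = 0.0636). Pdk1, a kinase that switches off pyruvate dehydrogenase and so diverts pyruvate from the mitochondria, fell from 105.6, 102.1 and 119.5 to 71.3, 65.5 and 65.9 CPM (log2 fold change -0.69 ± 0.118, edgeR adjusted p = 0.000361). Its relative Pdk3 overlapped between the genotypes, with a log2 fold change of 0.03 ± 0.129 that turned to -0.37, and was called lower, when libraries were scaled to the T cell markers.

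**Figure D1:**
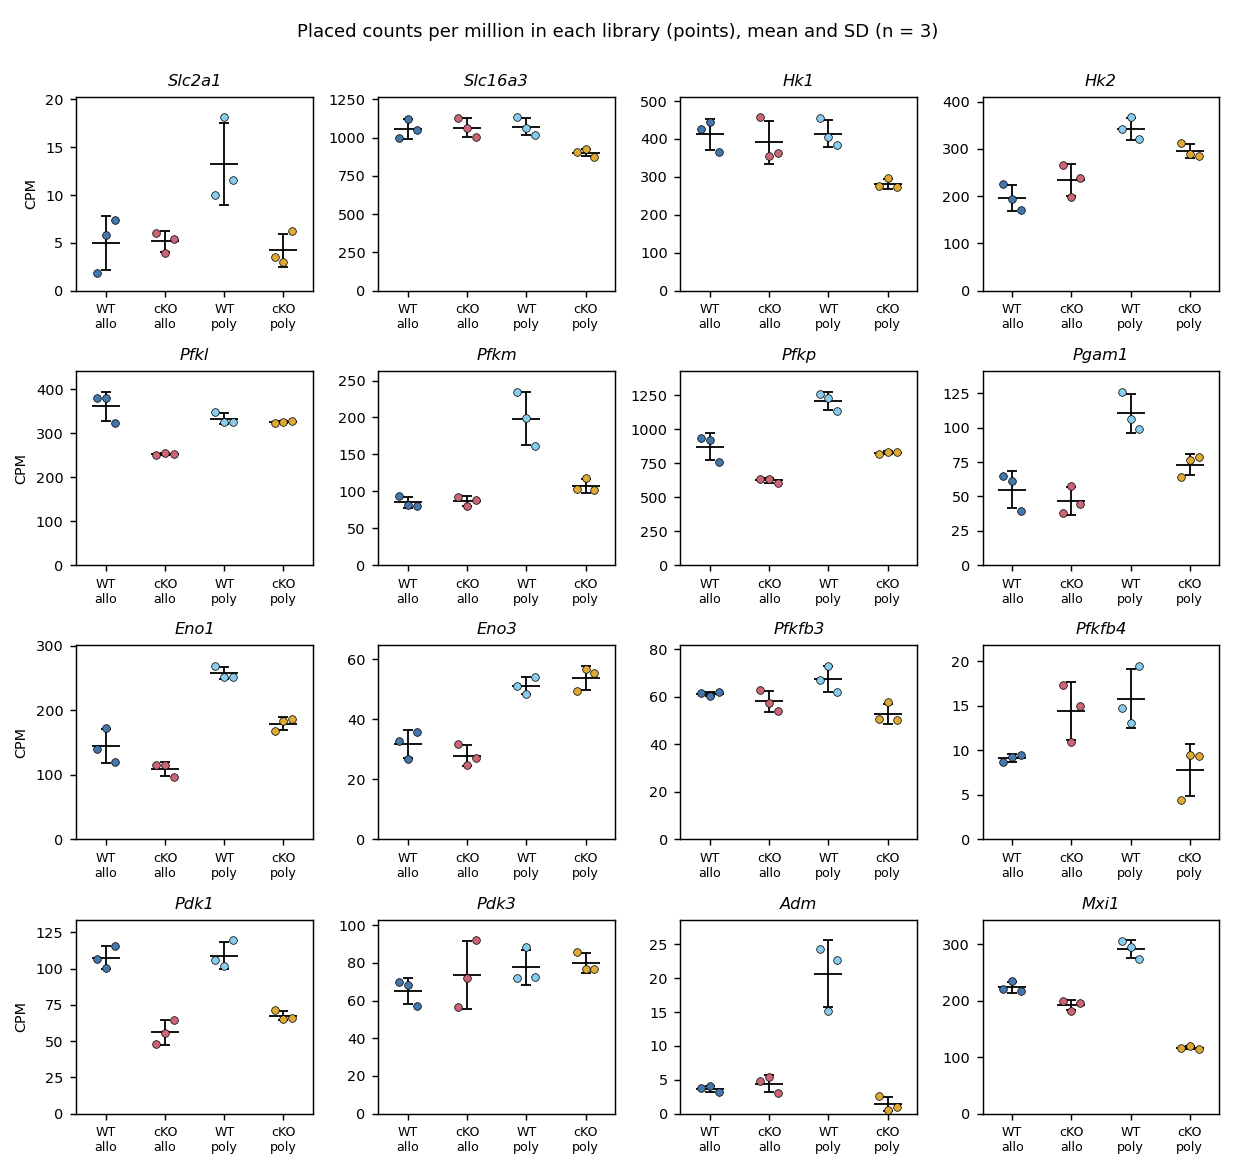
Level of each of the 16 genes in CPM (vertical axes, starting at 0) in the 12 libraries, with 1 point per library and the mean and SD of each group (n = 3). In Adm, Mxi1, Slc2a1, Hk2, Pfkm, Pfkp, Pgam1 and Eno1 the polyclonal WT libraries lie above all others. In Pdk1 all PERK-cKO libraries lie below all WT libraries.

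Levels of cell type markers also differed between genotypes in the polyclonal libraries, and the fitted changes depended on the scaling chosen. Among the T cell markers, Thy1 was higher (log2 fold change 0.64 ± 0.0745), Cd8b1 was higher (1.63 ± 0.386, from 2.11 to 8.55 CPM in WT to 14.5 to 23.3 CPM in PERK-cKO libraries) and Cd5 was lower (-0.58 ± 0.0795) in PERK-cKO cells, each with an edgeR adjusted p at or below 0.0045, Lck was higher (0.26 ± 0.0789, edgeR adjusted p = 0.0207) and Cd6 was not called. Basophil and mast cell markers summed to 12.3 to 16.1 CPM in PERK-cKO and 0.526 to 2.11 CPM in WT libraries, among them Fcer1a (6.16, 7.15 and 6.22 against 1.06, 0.503 and 0 CPM). The NK cell marker Klrk1, which activated CD8+ T cells also express, was at 10.6, 10.7 and 9.85 against 0, 2.01 and 1.58 CPM. Macrophage and B cell markers tested, Ctss and Ms4a1, were not called. Scaling the libraries to the summed counts of the 5 markers, most of which are Thy1 counts, shifted the median over all tested genes to -0.41 on the log2 scale and left 6.05% of the called genes higher, against 50.3% with TMM. With that scaling 15 of the 16 genes were called lower and their median was -0.96. Of all 3941 genes tested, 1916 were then called and 116 of these were higher, against 1254 and 631 with TMM. The part of cell composition in the falls was not tested. Without polyclonal WT library 1, 9 of the 16 genes were called and the median was -0.52.

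After allogeneic stimulation, 4 of the 15 genes tested were lower in PERK-cKO T cells (Pdk1, Pfkl, Pfkp and Eno1) and none was higher by edgeR or DESeq2, with 1 higher at an unadjusted edgeR p under 0.05 (Hk2). Over the 4096 genes tested, 33.2% were called, 14.7% lower and 18.5% higher. The median log2 fold change was -0.08 over the 15 genes and -0.02 over all genes, and it was 0.03 over the 15 genes with T cell marker scaling, which moved the median of all genes to 0.09 and the share of higher genes among those called from 55.8% to 70.9%. With that scaling Pdk1, Pfkl and Pfkp were still called lower, Eno1 was not called (-0.30) and Hk2 was called higher (0.36).

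Pdk1 showed the largest change of the 15. It fell from 106.7, 100.3 and 115.9 CPM in WT to 47.7, 55.9 and 64.3 CPM in PERK-cKO libraries, 1.94-fold lower (log2 fold change -0.96 ± 0.149, edgeR adjusted p = 1.69e-05). All 6 PERK-cKO libraries of both stimulations lay below all 6 WT libraries, which spanned 100.3 to 119.5 CPM. Pdk1 was called lower in all 6 fits that left out a library in each stimulation. Its counts came from a single entry of 6677 bases, of which 102 overlay coding bases of the gene.

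Pfkl (chr10:77986947-78010083, minus strand) fell from 380.1, 380.9 and 323.7 CPM to 250.7, 254.8 and 252.4 CPM (log2 fold change -0.52 ± 0.0982, edgeR adjusted p = 0.000181), with PERK-cKO libraries that hardly varied. Pfkp fell from 935.1, 916.6 and 754.4 to 632.5, 629.9 and 602.9 CPM (log2 fold change -0.49 ± 0.0947, edgeR adjusted p = 0.000259). When only entries lying at least 50% inside exons were used, Pfkp rested on the entry that covers 650 bases and was not called (-0.26). Eno1 fell from 140.1, 173.3 and 120.1 to 115, 115.3 and 96.2 CPM (log2 fold change -0.41 ± 0.138, edgeR adjusted p = 0.0244), and its call was lost without allogeneic PERK-cKO library 3 (-0.34), without allogeneic WT library 2 (-0.26) and when 10 counts were required in every library (-0.36).

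The other 11 genes tested were not called. Slc2a1, Slc16a3, Hk1, Pfkm, Pgam1, Eno3, Pfkfb3 and Pdk3 overlapped between genotypes. Hk2 stood at 225.7, 193.6 and 171 CPM in WT and 265.9, 198.9 and 239.2 CPM in PERK-cKO libraries (log2 fold change 0.25 ± 0.12, edgeR adjusted p = 0.118), and passed the threshold without allogeneic PERK-cKO library 2 (0.38) or allogeneic WT library 1 (0.36). Pfkfb4 was at 8.68 to 9.44 CPM in WT and 10.9 to 17.4 CPM in PERK-cKO libraries (log2 fold change 0.65 ± 0.333, edgeR adjusted p = 0.146). Mxi1 was at 216.1 to 234.8 CPM in WT and 181.6 to 199.1 CPM in PERK-cKO libraries (-0.23 ± 0.101, edgeR adjusted p = 0.0923). Adm held 5 to 11 counts per library and did not reach the filter on low counts. In the same allogeneic PERK-cKO libraries Lyz2, the lysozyme gene of myeloid cells, was at 860.2, 1042 and 987.5 CPM against 60.2, 44.6 and 56.7 CPM in WT, Cd5 was lower (-0.80 ± 0.102) and Lck was lower (-0.52 ± 0.0926, both edgeR adjusted p at or below 8.43e-05), and Thy1, the most abundant of the T cell markers read, was at 0.05 ± 0.0918 (edgeR adjusted p = 0.724). The part of these other cells in the 4 falls was not tested.

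**Figure D2:**
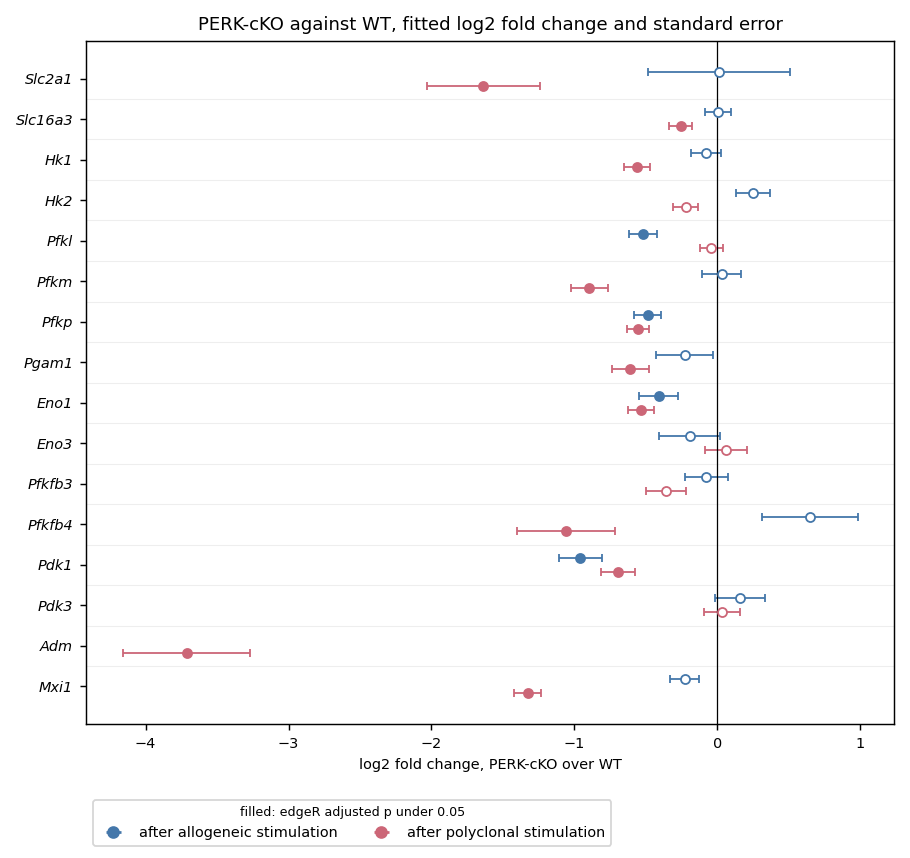
Fitted log2 fold change of PERK-cKO over WT with its standard error for each gene, after allogeneic (blue) and polyclonal (red) stimulation, with filled points where the edgeR adjusted p was below 0.05. After polyclonal stimulation 11 filled points lie left of 0, and after allogeneic stimulation 4 do. Adm is absent from the allogeneic series because it did not pass the filter.

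Genes read from several entries allowed the falls to be compared between table entries. After polyclonal stimulation the log2 ratio of group means was -0.495 and -0.513 in the 2 entries of Hk1, -0.577, -0.424 and -0.465 in the 3 entries of Pfkp, and -1.27 and -1.66 in the 2 entries of Mxi1, of which the latter held 45 counts. After allogeneic stimulation it was -0.522 and -0.448 in the 2 entries of Pfkl and -0.263, -0.556 and -0.625 in those of Pfkp. The entries of a gene share libraries and are not replicates. The remaining genes called lower after polyclonal stimulation were read from 1 entry each, except Slc16a3, where 98.5% of the counts came from 1 entry at -0.186 and the rest from another at -0.826.

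**Figure D3:**
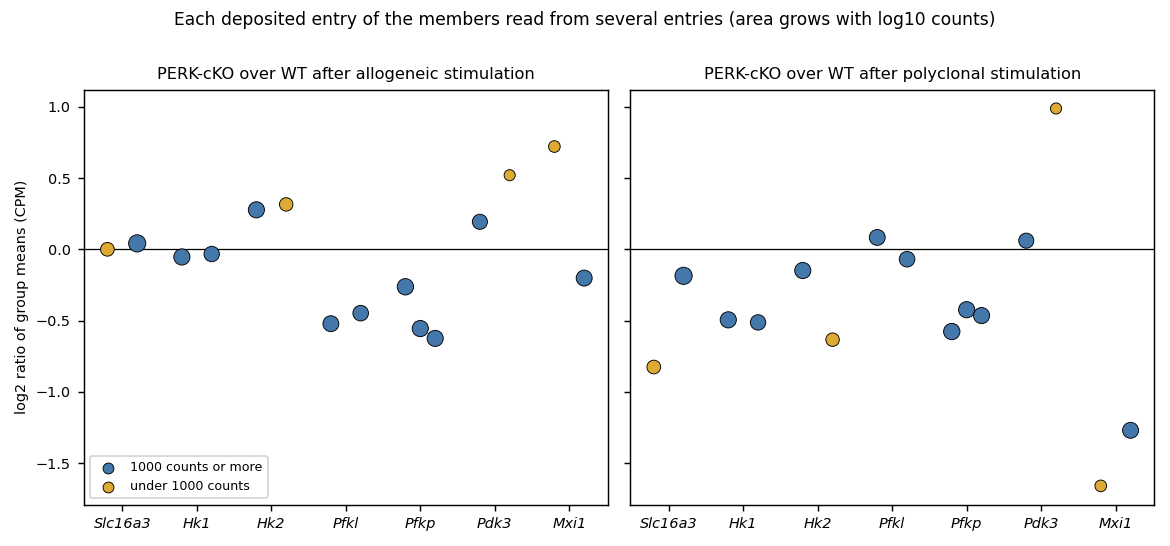
Log2 ratio of PERK-cKO to WT group mean CPM, without TMM, in each table entry of the 7 genes read from more than 1 entry, after allogeneic (left) and polyclonal (right) stimulation. Blue points are entries of 1000 counts or more and gold points hold fewer. The 2 blue points of Hk1 lie close together in both panels, while those of Pfkp spread from -0.625 to -0.263 in the left panel and those of Pfkl lie on both sides of 0 in the right panel (0.0832 and -0.0695).

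Whether the effect of genotype differed between the stimulations was tested as an interaction over all 12 libraries, which shares its libraries with the comparisons above. Of the 16 genes, 6 had a higher effect after allogeneic stimulation (Adm, Pfkfb4, Mxi1, Pfkm, Hk1 and Hk2) and 1 had a lower effect (Pfkl). Over the 4406 genes tested, 33.8% were called, 16.7% higher and 17.2% lower. The median difference was 0.32 over the 16 genes and 0.01 over all genes. Adm reached the filter only through the polyclonal WT libraries (30 to 46 counts, against 1 to 11 in the other 9); of the other 15 genes, 5 had a higher effect and 1 a lower effect, with a median of 0.27.

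The difference in log2 fold change was 3.99 ± 0.688 for Adm (edgeR adjusted p = 9.31e-05), 1.69 ± 0.47 for Pfkfb4 (edgeR adjusted p = 0.00731), 1.08 ± 0.13 for Mxi1 (edgeR adjusted p = 1.06e-06) and 0.91 ± 0.188 for Pfkm (edgeR adjusted p = 0.000613). These 4 were called in all 12 fits that left out a library. For Adm this is no independent support, because it reached the filter only through the polyclonal WT libraries. Its difference rose to 4.81 without polyclonal PERK-cKO library 1. Hk1 (0.47 ± 0.147, edgeR adjusted p = 0.0169) was lost without polyclonal WT library 1 (0.38) or allogeneic WT library 3 (0.38). Hk2 (0.46 ± 0.157, edgeR adjusted p = 0.028) was lost in 5 of the 12, those without allogeneic WT library 3 (0.35), allogeneic WT library 2 (0.43), allogeneic PERK-cKO library 1 (0.40), polyclonal PERK-cKO library 2 (0.43) or polyclonal WT library 1 (0.45). Pfkl was the exception in direction, at -0.50 ± 0.124 (edgeR adjusted p = 0.00324), and 0.04 with T cell marker scaling, which moved the median of all genes from 0.01 to 0.55.

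Slc2a1 had a large difference, 1.63 ± 0.659, that did not pass (edgeR adjusted p = 0.0604). It passed without polyclonal PERK-cKO library 3 (2.03) or allogeneic WT library 3 (2.01). Slc16a3 (0.25 ± 0.112, edgeR adjusted p = 0.0963) passed without allogeneic PERK-cKO library 3 (0.32), and it also passed with DESeq2 (0.30), RLE factors (0.30), T cell marker scaling (0.78), 10 counts required in every library (0.37) and entries at least 50% inside exons (0.31). For Pdk1, Pfkp and Eno1, which were lower in PERK-cKO cells after both stimulations, the difference was -0.28 ± 0.183, 0.05 ± 0.122 and 0.11 ± 0.168, and none was called. Pfkp was called with entries at least 50% inside exons (0.41) and with T cell marker scaling (0.59), and Eno1 was called with that scaling (0.64). T cell marker scaling moved the share of higher genes among those called from 49.2% to 91.2%, and 13 of the 16 genes were then called, with a median of 0.85. Of all 4406 genes tested, 1878 were called with that scaling, against 1491 with TMM.

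Allogeneic was then compared with polyclonal stimulation within each genotype. These comparisons reuse the libraries above. In WT cells the polyclonal libraries are the same ones that lay highest in Adm, Mxi1, Slc2a1, Hk2, Pfkm, Pfkp, Pgam1 and Eno1. In WT cells, 10 of the 16 genes (8 of 14 without Adm and Slc2a1, which reached the filter only through the polyclonal libraries) were lower after allogeneic stimulation and none was higher (by DESeq2, 9 and 0, and at an unadjusted edgeR p under 0.05, 10 and 0), where 48.6% of 3988 genes tested were called, 24.1% lower and 24.5% higher. The median log2 fold change was -0.58 over the 16 genes and -0.02 over all genes. In PERK-cKO cells, 6 of 15 genes were lower and 4 were higher (by DESeq2, 6 and 3, and at an unadjusted edgeR p under 0.05, 7 and 4). Without Pfkfb4, which reached the filter only through the allogeneic libraries, 6 of 14 were lower and 3 higher, with a median of -0.28. Of all 4162 genes tested, 51.4% were called, 23.8% lower and 27.7% higher. The median was -0.27 over the 15 genes and 0.0021 over all genes.

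Genes of the pathway's lower part were lower after allogeneic stimulation in both genotypes. In WT cells the log2 fold change was -1.02 ± 0.169 for Pgam1, -0.84 ± 0.121 for Eno1 and -0.69 ± 0.169 for Eno3, and in PERK-cKO cells it was -0.63 ± 0.171, -0.70 ± 0.113 and -0.93 ± 0.176. Pfkp (-0.48 ± 0.093 in WT and -0.40 ± 0.0796 in PERK-cKO cells) and Hk2 (-0.81 ± 0.106 and -0.32 ± 0.106) were likewise lower in both, although Hk2 in PERK-cKO cells was not called without allogeneic PERK-cKO library 2 (-0.22) or polyclonal PERK-cKO library 1 (-0.28). Among these 5 genes, Hk2 alone passed the interaction.

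Called directions were opposite in the 2 genotypes for Mxi1 and, by edgeR but not by DESeq2 or with a replicate block, for Pfkfb4. Mxi1 fell in WT (log2 fold change -0.38 ± 0.0872, edgeR adjusted p = 0.00272) and rose in PERK-cKO cells (0.73 ± 0.105, edgeR adjusted p = 1.32e-05), in groups that did not overlap. Pfkfb4 was at -0.78 ± 0.297 in WT (edgeR adjusted p = 0.0432) and at 0.94 ± 0.356 in PERK-cKO cells (edgeR adjusted p = 0.0359). The latter call is no independent support, because the gene reached the filter there only through the allogeneic libraries. In WT cells the Pfkfb4 call held in 1 of 6 fits that left out a library, that without polyclonal WT library 2, and ranged from -0.91 to -0.61. In PERK-cKO cells it held in 3 of 6 and was lost without polyclonal PERK-cKO library 1 (0.62), allogeneic PERK-cKO library 1 (0.78) or allogeneic PERK-cKO library 3 (0.91).

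Adm was 5.62-fold lower after allogeneic stimulation in WT cells (log2 fold change -2.49 ± 0.355, edgeR adjusted p = 7.29e-05), from 15.1 to 24.3 CPM to 3.15, 4.06 and 3.72 CPM. In PERK-cKO cells, where it was not tested, the summed counts were 2.94 times higher after allogeneic stimulation (exact 95% interval 1.34 to 7.12, counting error only). Slc2a1 was lower in WT (-1.37 ± 0.434, edgeR adjusted p = 0.0194), a call lost without polyclonal WT library 2 (-1.08) or allogeneic WT library 1 (-0.99), and was not called in PERK-cKO cells (0.29 ± 0.44). Pfkm was lower in WT (-1.23 ± 0.136, edgeR adjusted p = 7.79e-06) and at -0.29 ± 0.125 in PERK-cKO cells (edgeR adjusted p = 0.0612). In PERK-cKO cells Hk1 (0.48 ± 0.101) and Slc16a3 (0.25 ± 0.0809) were higher and Pfkl was lower (-0.36 ± 0.0877), where in WT none of these was called. The Slc16a3 call was lost without polyclonal PERK-cKO library 3 (0.22).

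**Figure D4:**
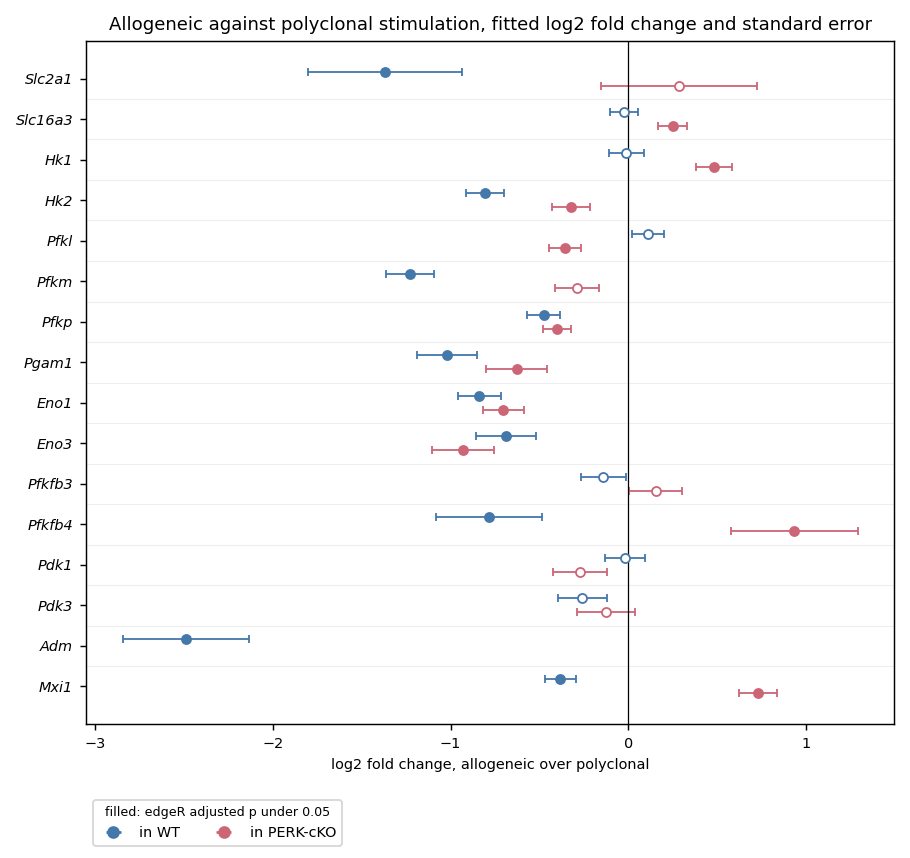
Fitted log2 fold change of allogeneic over polyclonal stimulation with its standard error, in WT (blue) and PERK-cKO (red) cells, with filled points where the edgeR adjusted p was below 0.05. The 10 filled WT points lie left of 0, while 4 filled PERK-cKO points, those of Slc16a3, Hk1, Pfkfb4 and Mxi1, lie right of it.

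With T cell marker scaling, in the stimulation comparison in WT cells, the median of all genes became -0.63 and the share of higher genes among those called fell from 50.3% to 10.4%. Of all 3988 genes tested, 2774 were then called and 288 of these were higher. All 16 genes were called lower, with Pfkl turning from 0.11 to -0.50. In PERK-cKO cells the median of all genes became -0.11 and 9 of 15 genes were called, where 2160 of all 4162 genes tested were. The part of APCs, of any difference in culture length and of the sex of the allogeneic WT cells in these differences cannot be told apart from the stimulus.

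The rest of the pathway was followed in a list of 50 other genes, from the pentose phosphate pathway, pyruvate entry into mitochondria, the HIF machinery, other HIF targets and sugar metabolism. Of these, 17 had 10 or more assigned counts. After polyclonal stimulation, 3 of 16 tested were lower and 1 was higher in PERK-cKO cells, with a median log2 fold change of 0.01, where 15.8% of all genes tested were lower and 16% higher. Without Plod2 and Pdhb, which reached the low-count filter only through the WT libraries, 2 of 14 were lower and 1 was higher, with a median of 0.09. Hilpda, which encodes a lipid droplet protein induced by hypoxia, stood at 1145, 1018 and 1464 CPM in WT and 462.6, 424.8 and 337.1 CPM in PERK-cKO libraries (log2 fold change -1.57 ± 0.131, edgeR adjusted p = 5.16e-07). Plod2, a collagen lysyl hydroxylase, fell from 12.7, 14.6 and 16.8 to 3.96, 4.77 and 4.67 CPM (-1.72 ± 0.335, edgeR adjusted p = 0.00109), and Kdm4b, a histone demethylase, fell from 105.6, 81.5 and 87.9 to 55.02, 43.5 and 43.6 CPM (-0.95 ± 0.149, edgeR adjusted p = 0.000198). Tigar, a phosphatase that lowers phosphofructokinase activity, was higher (0.59 ± 0.0985, edgeR adjusted p = 0.00031), at 175.2 to 182.5 CPM against 108.9 to 126.7 CPM in WT.

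The 6 genes of the HIF machinery that were tested, Arnt, Epas1, Hif1an, Cul2, Rbx1 and Eloc, were not called by genotype after either stimulation, with 0 also by DESeq2 and at an unadjusted edgeR p under 0.05. After polyclonal stimulation their log2 fold changes ran from -0.34 ± 0.201 for Eloc to 0.47 ± 0.222 for Epas1. After allogeneic stimulation 1 of 15 other pathway genes was higher in PERK-cKO cells and none was lower (by DESeq2, 1 and 0, and at an unadjusted edgeR p under 0.05, 2 and 0), where 18.5% and 14.7% of all genes were. That gene was Plod1, another collagen lysyl hydroxylase, at 70.7, 72.7 and 62.5 CPM against 32.9, 32.5 and 32.5 CPM in WT (1.07 ± 0.166, edgeR adjusted p = 1.68e-05). The interaction was called for 6 of 16, near the 33.8% of all genes, with Hilpda (1.79 ± 0.182), Plod2 (1.92 ± 0.444), Kdm4b (0.98 ± 0.22), Pdk4 (2.95 ± 0.89) and Plod1 (0.72 ± 0.262) higher and Tigar (-0.40 ± 0.151) lower, although by DESeq2 5 were higher and 0 lower. Pdk4 held 0 to 2 counts per library in allogeneic WT cells.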

How the data were processed

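The authors deposited raw counts of read pairs per gene symbol, made per the file headers with featureCounts 2.0.1 on exons of GENCODE M27 (GRCm39), without strand. The submitters' notes name mm10, and the aligner is not given in the sources used here. Here the printed exon positions were laid, unconverted, on GRCm38 exons of GENCODE M21, and the 13393 of 53762 entries that overlay exons of exactly 1 gene (small RNAs not considered) over 50 bp or more were summed per gene (50.5% of counts). Part of an entry may lie outside those exons and collect other reads, and reads of overlapping or antisense genes cannot be told apart. Each comparison used its 6 libraries, and the interaction all 12. Genes were filtered by filterByExpr, normalized by TMM and tested with edgeR 4.0.16 (quasi-likelihood, R 4.3.3), with calls at a Benjamini-Hochberg adjusted p under 0.05 over all genes tested; the study names DESeq2, used here (1.42.0) as an alternative. The test was tried on simulated counts. All genes with 10 or more counts are named, and those called in any comparison are given with values per library, up to 10 per comparison; other pathway genes are given by value where called, up to 5 per genotype comparison. Alternatives were other scalings and filters, stricter placement, a replicate block, 1 fit of all libraries and each library left out. Members, lists and rules were chosen with earlier results of these data known. Same-numbered libraries did not deviate together (correlations -0.0987 to 0.0984), so the numbers do not pair them. Promoter sequences are RefSeq's. Intervals cover counting error only.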

Additional observations from a re-analysis of the deposited data

Results flagged for a closer look

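In 7 of the 16 genes tested, where 33.8% of all 4406 genes were called, the interaction test was called (edgeR, adjusted p below 0.05). In these genes the fold change between PERK-cKO and WT cells after allogeneic stimulation differed from that after polyclonal stimulation. On the log2 scale, allogeneic minus polyclonal, the difference was 3.99 for Adm, 1.69 for Pfkfb4, 1.08 for Mxi1, 0.91 for Pfkm, 0.47 for Hk1, 0.46 for Hk2 and -0.50 for Pfkl. Adm reached the low-count filter only through the polyclonal WT libraries, and of the other 15 genes 5 were called higher and 1 lower. After polyclonal stimulation Adm, Pfkfb4, Mxi1, Pfkm and Hk1 were called lower in PERK-cKO cells and after allogeneic stimulation none of these 5 was called (Adm was not tested there). In the polyclonal comparison Adm and Pfkfb4 reached the filter only through the WT libraries, so their calls are no independent support. For Pfkl the reverse held. Hk2 was called by genotype after neither stimulation and had opposite signs in the pair. The allogeneic PERK-cKO libraries also held more macrophage, basophil and B cell marker counts than any other group, and the part of those cells in these differences was not tested. Y-linked genes were read only in the allogeneic WT libraries, so the sex of the cells cannot be told apart from genotype or stimulus in these differences.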

How the results depend on the processing

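The count of genes called lower or higher stayed within 1.5 times its value under DESeq2, RLE factors, library size only, no filter, a minimum of 10 counts per library and 1 fit of all 12 libraries, for each of the 5 comparisons where that fit applies. Leaving out each library in turn gave 3 to 5 genes called after allogeneic stimulation, 9 to 11 after polyclonal stimulation, 5 to 8 in the interaction, 8 to 9 between stimulations in WT and 8 to 10 in PERK-cKO cells. A replicate block gave 4, 11, 7, 9 and 9 called in the same order, against 4, 11, 7, 10 and 10 without it. The libraries share only a number, so this is no paired design.

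Requiring entries to lie at least 50% inside exons left 2 of the genes, Slc16a3 and Pfkp, of which 0 were called after allogeneic stimulation (edgeR), 2 after polyclonal stimulation, 2 in the interaction, 1 between stimulations in WT and 2 in PERK-cKO cells. Entries with at least 80% of their exon bases on 1 gene, a rule chosen after seeing the data, gave 7 called of 19 after allogeneic stimulation. With that rule 1636 of all 4829 genes tested were called. Scaling to T cell markers gave 13 of 16 called in the interaction, where 1878 of all 4406 genes tested were called. Between stimulations in WT it gave 16 of 16, where 2774 of all 3988 genes tested were called. It changed the sign of 8 fitted values, of which 3 were called with or without it: Pdk3 after polyclonal stimulation (-0.37), Pfkl in the interaction (0.042) and Pfkl between stimulations in WT (-0.50). The other 5 were Hk1 and Pfkfb3 after allogeneic stimulation, Eno3 after polyclonal stimulation, and Eno3 and Pdk1 in the interaction. This scaling shifts all genes together, by the medians given above.

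For genes called under at least 1 setting, 491 results with all libraries kept stayed on their side of the threshold with the same sign, 15 calls were lost, 24 were gained and 8 signs changed: the 3 above and 5 of uncalled values, Pfkl after polyclonal stimulation with library size only (0.018) and, between stimulations in WT, Slc16a3 (0.0069), Hk1 (0.021) and Pdk1 (0.011) in 1 fit of all libraries and Hk1 with no filter (0.00065). With 1 library left out, 404 stayed, 27 were lost, 7 were gained and 12 signs changed, all of uncalled values that ranged from -0.044 to 0.14 for Pdk3 after polyclonal stimulation, -0.052 to 0.14 for Pfkp, -0.021 to 0.25 for Eno1 and -0.041 to 0.32 for Pdk3 in the interaction, and -0.069 to 0.026 for Slc16a3, -0.072 to 0.072 for Hk1 and -0.075 to 0.042 for Pdk1 between stimulations in WT. Pfkfb4 lost the most calls with all libraries kept. Between stimulations in WT it was lost with DESeq2 (-0.78), library size only (-0.80), no filter (-0.77), the replicate block (-0.78) and 1 fit of all libraries (-0.75), and in PERK-cKO cells with DESeq2 (0.95), T cell scaling (0.82) and the block (0.95). Slc16a3 after polyclonal stimulation was lost with library size only (-0.20), Slc16a3 between stimulations in PERK-cKO cells was lost with library size only (0.20) and T cell scaling (0.14), and Hk2 was lost in the interaction with library size only (0.45). Few assigned counts limit Adm, Slc2a1 and Pfkfb4, with at most 46 in any library, and for Slc2a1 an entry of 13795 counts was set aside. The 18 listed genes with no entry and the 1 with under 10 assigned counts could not be tested. Of the 8 with shared entries only, 4 were read with the 80% rule.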

Other observations

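With the looser placement chosen after seeing the data, in which an entry counts for a gene that holds at least 80% of its exon bases, 4 more genes of the list could be read. They share their entries with Fam57b, Usp5, Gm47112 and Ruvbl2, whose reads are mixed in. Tpi1, triosephosphate isomerase, stood at 2546, 2672 and 2738 CPM in WT and 1579, 1565 and 1472 CPM in PERK-cKO libraries after allogeneic stimulation (log2 fold change -0.79 ± 0.0856, edgeR adjusted p = 1.44e-07), and at 2086, 2101 and 2158 against 1795, 1678 and 1658 CPM after polyclonal stimulation (-0.31 ± 0.0722, edgeR adjusted p = 0.00389). Its interaction was -0.50 ± 0.104 (edgeR adjusted p = 0.00072), the sign that Pfkl also had. Aldoa, an aldolase, was lower in PERK-cKO cells after both stimulations (allogeneic -0.39 ± 0.0912, polyclonal -0.34 ± 0.0757, edgeR adjusted p = 0.00172 and 0.00319), as was Higd1a, a mitochondrial protein induced by hypoxia (allogeneic -0.51 ± 0.113, polyclonal -0.82 ± 0.0906, edgeR adjusted p = 0.00116 and 8.7e-06).

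Gys1, the glycogen synthase, was highest in the polyclonal WT libraries, as were Adm, Mxi1, Slc2a1, Hk2, Pfkm, Pfkp, Pgam1 and Eno1. It stood at 178.4, 176.3 and 155.8 CPM in polyclonal WT libraries and at 62.2, 65.5 and 70.7 CPM in polyclonal PERK-cKO libraries (-1.37 ± 0.102, edgeR adjusted p = 2.08e-07), while allogeneic libraries lay at 56.8 to 67.9 CPM in WT and 62.9 to 72.5 CPM in PERK-cKO cells. Its entry also covers 225 bases of Ruvbl2, so the share of each gene in these counts was not tested.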
